A study of Mus musculus with 3 samples.

Results

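The stefin A cluster of the mouse is a group of near-copies of 1 gene. Its 6 members described here, Stfa1, Stfa2, Stfa3, Stfa2l1, BC100530 and Gm5416, were chosen by symbol among the 31053 genes of the deposited tables, because the Stfa3 level stayed high with celastrol while other activation genes of the epidermis were lower. That comparison is therefore given as a description. UMIs (unique molecular identifiers, each standing for 1 captured RNA molecule) were read for them in 3 single-cell libraries of dorsal skin from C57BL/6 mice aged 7 weeks. The normal library came from control skin given glycerin, the IMQ library from skin given imiquimod, and the IMQ+celastrol library from skin given imiquimod and celastrol. Imiquimod activates an innate immune receptor and is used to raise psoriasis-like inflammation in mice. Celastrol is a plant triterpenoid. How many animals gave each library was not stated in the labels.

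Each group had 1 library, so no test between groups was possible and no p-value is given. Treatment and library cannot be told apart. Levels are CPM (UMIs scaled to a total of 1e6) of all the cells of a class summed, with exact 95% Poisson intervals. Ratios carry exact 95% intervals. These intervals cover counting error only.

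Stefins A are small proteins without a signal peptide that block papain-like cysteine proteases, the cathepsins, inside cells. The human genome has a single gene of this kind, CSTA, whose product is also cross-linked into the cornified envelope of the outer epidermis. In the mouse the gene was duplicated many times, and the copies are known from epidermis and from myeloid cells, neutrophils among them.

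All 6 members lie on chromosome 16 of GRCm38, per the GENCODE annotation. Stfa2l1 spans chr16:36156811-36161953, Gm5416 (Csta3 in RefSeq) chr16:36210403-36217788 and Stfa1 chr16:36276951-36285373, all on the plus strand. BC100530 (Cstdc5 in RefSeq) spans chr16:36359382-36367748, Stfa2 chr16:36403992-36408457 and Stfa3 chr16:36450537-36455392, all on the minus strand. The 150 bases before the RefSeq start site (GRCm38.p6) of each member are shown 5′ to 3′ because the members share a stretch at the start of transcription while their levels differ between cell types. Capitals mark the longest run present in all 6.

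Stfa1 (chr16:36276998-36277147, plus strand): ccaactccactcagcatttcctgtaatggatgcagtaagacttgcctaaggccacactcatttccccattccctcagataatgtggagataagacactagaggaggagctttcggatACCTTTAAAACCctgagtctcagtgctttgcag
BC100530 (chr16:36367571-36367720, minus strand): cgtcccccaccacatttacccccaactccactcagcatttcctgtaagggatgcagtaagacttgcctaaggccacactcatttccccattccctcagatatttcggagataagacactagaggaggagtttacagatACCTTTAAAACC
Stfa3 (chr16:36455393-36455542, minus strand): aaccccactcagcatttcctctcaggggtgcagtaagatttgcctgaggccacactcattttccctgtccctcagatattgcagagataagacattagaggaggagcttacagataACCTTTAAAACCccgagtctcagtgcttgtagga
Stfa2 (chr16:36408364-36408513, minus strand): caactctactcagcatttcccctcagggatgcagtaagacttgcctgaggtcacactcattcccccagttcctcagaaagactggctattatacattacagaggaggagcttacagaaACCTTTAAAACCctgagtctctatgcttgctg
Stfa2l1 (chr16:36156661-36156810, plus strand): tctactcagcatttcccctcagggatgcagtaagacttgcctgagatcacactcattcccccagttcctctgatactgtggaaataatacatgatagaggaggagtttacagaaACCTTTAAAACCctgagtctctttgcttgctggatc
Gm5416 (chr16:36210253-36210402, plus strand): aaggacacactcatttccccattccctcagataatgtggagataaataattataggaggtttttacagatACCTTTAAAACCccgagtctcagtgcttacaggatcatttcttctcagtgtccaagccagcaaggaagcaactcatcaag

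The shared run ACCTTTAAAACC was found in the promoters of 6 of 6 members and in 10 of 32851 RefSeq promoter windows, or 0.0304%. Each window held the 150 bases before a start site and was searched on both strands. It holds the TATA-like TTTAAA, which 6.75% of promoters held. The run began 32 to 36 bases before the start site in Stfa1, Stfa2, Stfa3 and Stfa2l1, 12 bases before it in BC100530 and 80 bases before it in Gm5416. The windows of Stfa2 and Stfa2l1 were 88.7% identical and those of Stfa1 and Stfa3 86%. TTGCNNAA, a core of C/EBP sites, was present in Stfa1 and BC100530 and in 5.46% of all promoters. AGGAAG, a core of ETS sites, was present in Gm5416 and in 19.7% of all promoters. TGANTCA (AP-1 core) and TTCNNNGAA (STAT core) were present in 0 of the 6 windows, against 4.24% and 4.09% of promoters. A match of letters is a description and shows no binding.

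The likeness of the copies limits how their UMIs can be split. The longest annotated transcripts of Stfa1 and BC100530 matched at 96.8% of bases, counted over the longer one. Of the 50-base windows in the last 250 bases, where 3′ libraries read, 54.7% of those of Stfa1 and 57.7% of those of BC100530 occurred in another stefin A transcript. The shares were 28.4% for Stfa2 and 6.97% for Stfa2l1, and 0 for Stfa3 and Gm5416. How reads that match more than 1 gene were counted is not given in the sources used here. Stfa1 and BC100530 levels, and to a lesser degree those of Stfa2, are therefore uncertain as a split between copies. Stfa3 and Gm5416 shared no 50-base window with another annotated stefin A transcript. The annotated Gm5416 transcript has only 294 bases, and whether it reaches the 3′ end that was read was not tested.

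Keratinocyte-like cells numbered 1783 (normal), 989 (IMQ) and 1428 (IMQ+celastrol), and neutrophil-like cells 7, 140 and 67. Kept cells numbered 9558, 7495 and 6092, from libraries of 77880943, 119831835 and 103267738 UMIs. The median keratinocyte-like cell held 8613, 42201 and 28032 UMIs. The classes held their defining markers: Krt14, a basal keratin, was at 8895, 16624 and 17953 CPM in the keratinocyte-like cells, and the receptor gene Csf3r was at 629 CPM in the neutrophil-like cells of the IMQ library. S100a8, which was not used to name neutrophils, was at 114580 CPM there and at 16416 CPM in the keratinocyte-like cells of the IMQ library. Clusters 11, 17 and 35 held most normal keratinocyte-like cells, clusters 8 and 9 most of those of the IMQ library, and clusters 18, 9, 8 and 23 most of those of the IMQ+celastrol library. Stefin A genes were left out when cells were clustered and named. Barcodes shared between pairs of libraries numbered 15 to 26.

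In keratinocyte-like cells 5 of the 6 members (all but Stfa2l1) were more abundant in both imiquimod libraries than in the normal one. The 6 together made up 1196 CPM of normal, 15804 of IMQ and 13755 of IMQ+celastrol UMIs. The sum was 13.2-fold higher in IMQ than in normal (13.02 to 13.40) and 1.15-fold lower with celastrol than in IMQ. The direction of the second ratio was not the same in an alternative run. Its log2 value was -0.20 in the whole class. It was 0.077 in clusters 8, 9 and 23 with their mix held equal, as described further on. The parts of the mix and of the clusters left out were not tested. The members differed from each other in the second ratio.

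BC100530 gave the most UMIs of the 6 in every library. Its level was 656 CPM (643 to 668) in normal, 8743 (8715 to 8771) in IMQ and 8027 (8001 to 8054) in IMQ+celastrol, so 13.3-fold higher in IMQ than in normal and 1.09-fold lower with celastrol than in IMQ. The second ratio was 1.15-fold higher, not lower, once the mix of clusters was held equal as described further on. Stfa3 was at 429 CPM (419 to 439), 3721 (3703 to 3739) and 4067 (4049 to 4086). It was 8.68-fold higher in IMQ than in normal (8.47 to 8.89) and 1.09-fold higher with celastrol than in IMQ (1.0858 to 1.1004). These 2 members were both high in the imiquimod libraries, with or without celastrol.

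Stfa1 was at 112 CPM (106 to 117) in normal, 2918 (2902 to 2934) in IMQ and 1532 (1520 to 1543) in IMQ+celastrol. It was 26.2-fold higher in IMQ than in normal (24.997 to 27.4) and 1.91-fold lower with celastrol (1.89 to 1.92). Stfa1 thus lay between the other copies, well above normal in both imiquimod libraries and lower in the celastrol library.

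Stfa2 and Gm5416 were near 0 in normal keratinocyte-like cells. Stfa2 gave 5 UMIs there (0.301 CPM), 5515 UMIs in IMQ (126 CPM, 123 to 130) and 1679 in IMQ+celastrol (37.1 CPM, 35.4 to 39.0), 3.40-fold lower with celastrol than in IMQ (3.22 to 3.60). Gm5416 gave 3 UMIs in normal (0.1804 CPM), 12871 in IMQ (295 CPM, 290 to 300.1) and 4141 in IMQ+celastrol (91.6 CPM, 88.8 to 94.4), 3.22-fold lower with celastrol (3.11 to 3.34). The ratio of IMQ to normal was 420 for Stfa2 (180 to 1295) and 1635 for Gm5416 (559 to 7927), both resting on few normal UMIs. Under other treatments of doublets, clustering and cluster names, the log2 ratio of Gm5416 was 7.79 to 8.53, against 10.67 here. For Stfa2 the log2 ratio of IMQ+celastrol to IMQ was -3.66 with doublets kept, against -1.77 here.

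Stfa2l1 was the copy that keratinocyte-like cells lacked. It gave 0 UMIs in 16626226 of the normal library, which allows up to 0.1804 CPM, 31 in IMQ (0.710 CPM) and 0 in IMQ+celastrol, which allows up to 0.0664 CPM. Its level in IMQ was at least 3.94-fold higher than the limit in normal, and that with celastrol at least 10.7-fold lower than in IMQ. Per 1000 UMIs of a 12-gene leukocyte list, keratinocyte-like cells of the IMQ library held 16.4 Stfa2l1 UMIs and neutrophil-like cells 20.5.

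**Figure D1:**
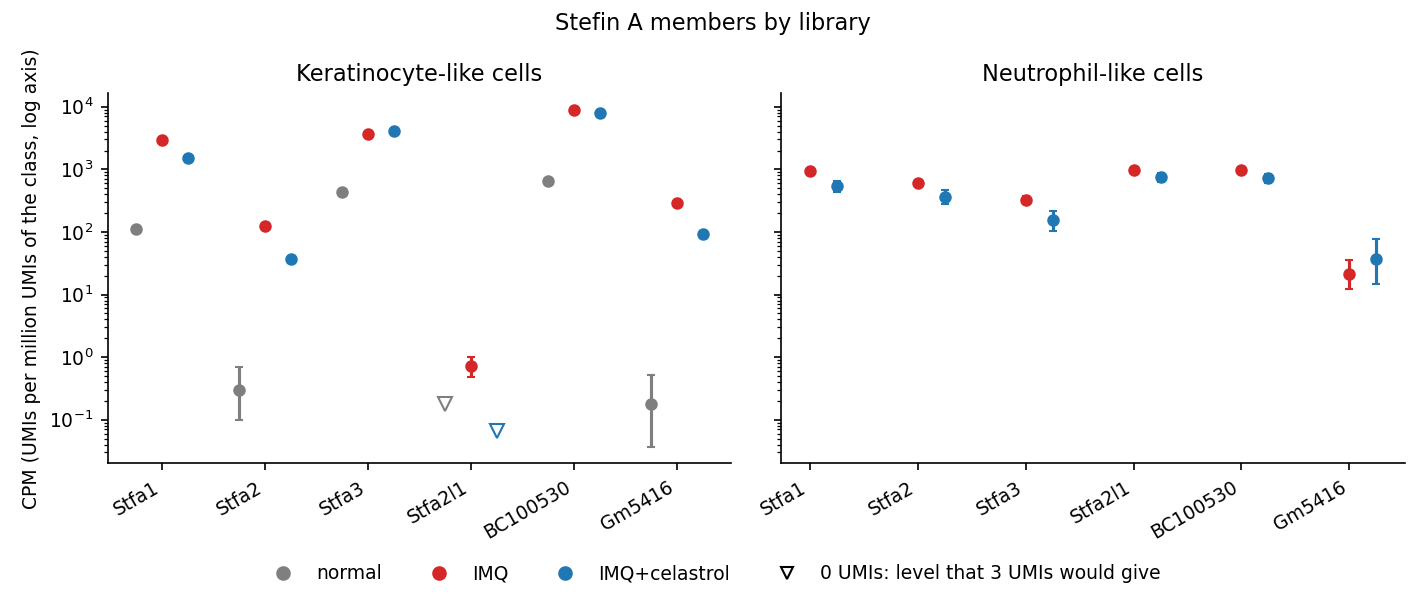
Level of each stefin A member in CPM (log axis) in keratinocyte-like cells (left) and neutrophil-like cells (right), 1 point per library with its exact 95% Poisson interval; open triangles mark what 3 UMIs would give where 0 were found, and the 7 normal neutrophil-like cells are not drawn. Stfa3 and BC100530 lie close together in the IMQ and IMQ+celastrol libraries on the left, whereas Stfa1, Stfa2 and Gm5416 are lower with celastrol, and Stfa2l1 is near 0 on the left and high on the right.

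At 1.5-fold, 6 of 6 members were higher in IMQ than in normal keratinocyte-like cells and 0 lower, against 22.3% higher and 27% lower of 14173 genes with at least 10 UMIs. Stfa2l1 was counted among the 6 on only 31 UMIs in IMQ and 0 in normal. With celastrol against IMQ, 0 of 6 were higher and 4 were lower (Stfa1, Stfa2, Stfa2l1 and Gm5416), against 14.8% and 10.2% of 14628 genes. The members were chosen with this contrast in view, so nothing is read from these counts. Against normal, the celastrol library held Stfa1 at 13.7-fold, Stfa3 at 9.48-fold and BC100530 at 12.2-fold higher levels. There 5 of 6 were higher by 1.5-fold and 0 lower, against 18.1% and 20.2% of genes, with Stfa2l1 at 0 UMIs in both. That comparison and the one of IMQ with normal share their normal library.

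The table held 3 other stefin A rows. Csta1, the mouse gene closest in name to human CSTA, was at 28.3, 357 and 183 CPM in normal, IMQ and IMQ+celastrol, 1.95-fold lower with celastrol. BC117090 was at 1.08, 34.4 and 32.0 CPM, and Gm5483 at most at 1.95 CPM.

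The share of cells with a UMI followed the levels. Stfa3 UMIs were found in 44.4% of normal, 97.8% of IMQ and 98.4% of IMQ+celastrol keratinocyte-like cells. With every cell thinned to 3000 UMIs, which left 1707, 964 and 1402 cells, these shares were 32.1%, 89.2% and 89.4%. Stfa1 was found in 14.4%, 90.7% and 77.4% of thinned cells, Gm5416 in 0.0586%, 40.4% and 12.6%, and Stfa2 in 0.0586%, 16.1% and 3.85%. In fibroblast-like cells, which are not a known source of stefin A, Stfa3 UMIs were found in 0.282%, 12.4% and 28.3% of cells, at median depths of 4250, 8848 and 8918 UMIs. Thinned alike, the fibroblast-like shares were 0.253%, 4.64% and 11.4% for Stfa3 and 0.0506%, 0.195% and 0.0909% for Stfa2. The shares in keratinocyte-like cells of the imiquimod libraries lay above these, and the Stfa2 share of normal cells did not stand apart from the fibroblast-like one.

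UMIs of Stfa3 and BC100530 were spread over most cells, and those of Stfa2 over few. In the IMQ library the tenth of keratinocyte-like cells with most UMIs of a gene held 26.7% of the BC100530 UMIs, 31.2% of Stfa3, 34.7% of Stfa1, 51.4% of Gm5416 and 80.3% of Stfa2. With celastrol these shares were 34.6%, 35.3%, 43.0%, 77.2% and 96.6%. The median cell held 30.7 Stfa3 UMIs per 10000 in IMQ and 29.5 with celastrol, and 22.3 and 8.63 Stfa1 UMIs.

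The members were also compared within the clusters that both imiquimod libraries filled, where their ratios differed from cluster to cluster. Cluster 8, suprabasal cells led by Cnfn, Sprr2d and Krt6b, held 495 IMQ and 291 IMQ+celastrol cells. Stfa3 was at 5302 and 6718 CPM there, 1.27-fold higher with celastrol (1.25 to 1.28), and BC100530 at 12256 and 14923, 1.22-fold higher. Stfa1 was 1.42-fold lower (4294 and 3028 CPM), Stfa2 1.23-fold lower (170 and 138 CPM) and Gm5416 1.58-fold lower (393 and 248 CPM). At 1.5-fold, 2 of 6 members were lower, Gm5416 and Stfa2l1 (13 and 0 UMIs), against 11.2% of genes, and 0 higher, against 12.8%.

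Cluster 9, dividing basal cells led by Ube2c, Top2a and Il19, held 407 and 356 cells. Stfa3 was at 2681 and 2627 CPM (1.02-fold lower, 1.01 to 1.03) and BC100530 at 6452 and 6387. Stfa1 was 1.66-fold lower (1998 and 1205 CPM), Gm5416 3.32-fold lower (241 and 72.8 CPM) and Stfa2 8.38-fold lower (103 and 12.3 CPM, 7.23 to 9.77). Here 4 of 6 members were lower by 1.5-fold, Stfa2l1 (16 and 0 UMIs) included, against 7.54% of genes, and 0 higher, against 11.5%. Stfa2 was therefore near its IMQ level in the suprabasal cluster and far below it in the dividing one.

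Cluster 23 (led by Lmo1, Aldh3a1 and Sostdc1) was the only keratinocyte-like cluster with at least 50 cells in all 3 libraries, 177, 77 and 242. Its Stfa3 level was 279, 699 and 774 CPM, its BC100530 level 498, 1926 and 2510, and its Stfa1 level 57.9, 429 and 352. Stfa3 was 2.51-fold higher in IMQ than in normal (2.26 to 2.79), less than the 8.68-fold of the whole class, and Stfa1 7.41-fold (5.98 to 9.27). At 1.5-fold, 4 of 4 members with at least 10 UMIs were higher in IMQ than in normal, and 0 lower, against 23.6% and 15.3% of genes, Gm5416 by at least 4.32-fold (20 and 0 UMIs), while Stfa2 and Stfa2l1 gave 0 UMIs. With celastrol against IMQ, 0 of 4 were past 1.5-fold in either direction, against 10.1% higher and 11.8% lower.

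Cluster 18, basal cells led by Col17a1, Chit1 and Wnt4, held 523 of the 1428 keratinocyte-like cells with celastrol, 66 in normal and 10 in IMQ. Stfa3 was at 5203 CPM there with celastrol, close to the 5302 of the suprabasal cluster 8 in IMQ, and at 1418 in normal. BC100530 was at 7058 and 3337 CPM and Stfa1 at 1283 and 653. The 10 IMQ cells were too few to set beside them.

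Cluster 13 (led by Krt79, Sdr16c6 and Defb6) was given no class name because genes of another class were among its leading genes. It held 20, 291 and 429 cells. All members with 10 or more UMIs were higher there with celastrol than in IMQ: Stfa3 2.11-fold (1043 and 2204 CPM), BC100530 1.68-fold (3634 and 6094 CPM), Gm5416 2.44-fold (15.6 and 38.2 CPM), Stfa2 9.59-fold (7 and 93 UMIs) and Stfa1 1.22-fold (714 and 870 CPM). Of these 5, 4 were past 1.5-fold, against 10.8% of genes, and 0 were lower by that much, against 8.19%.

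**Figure D2:**
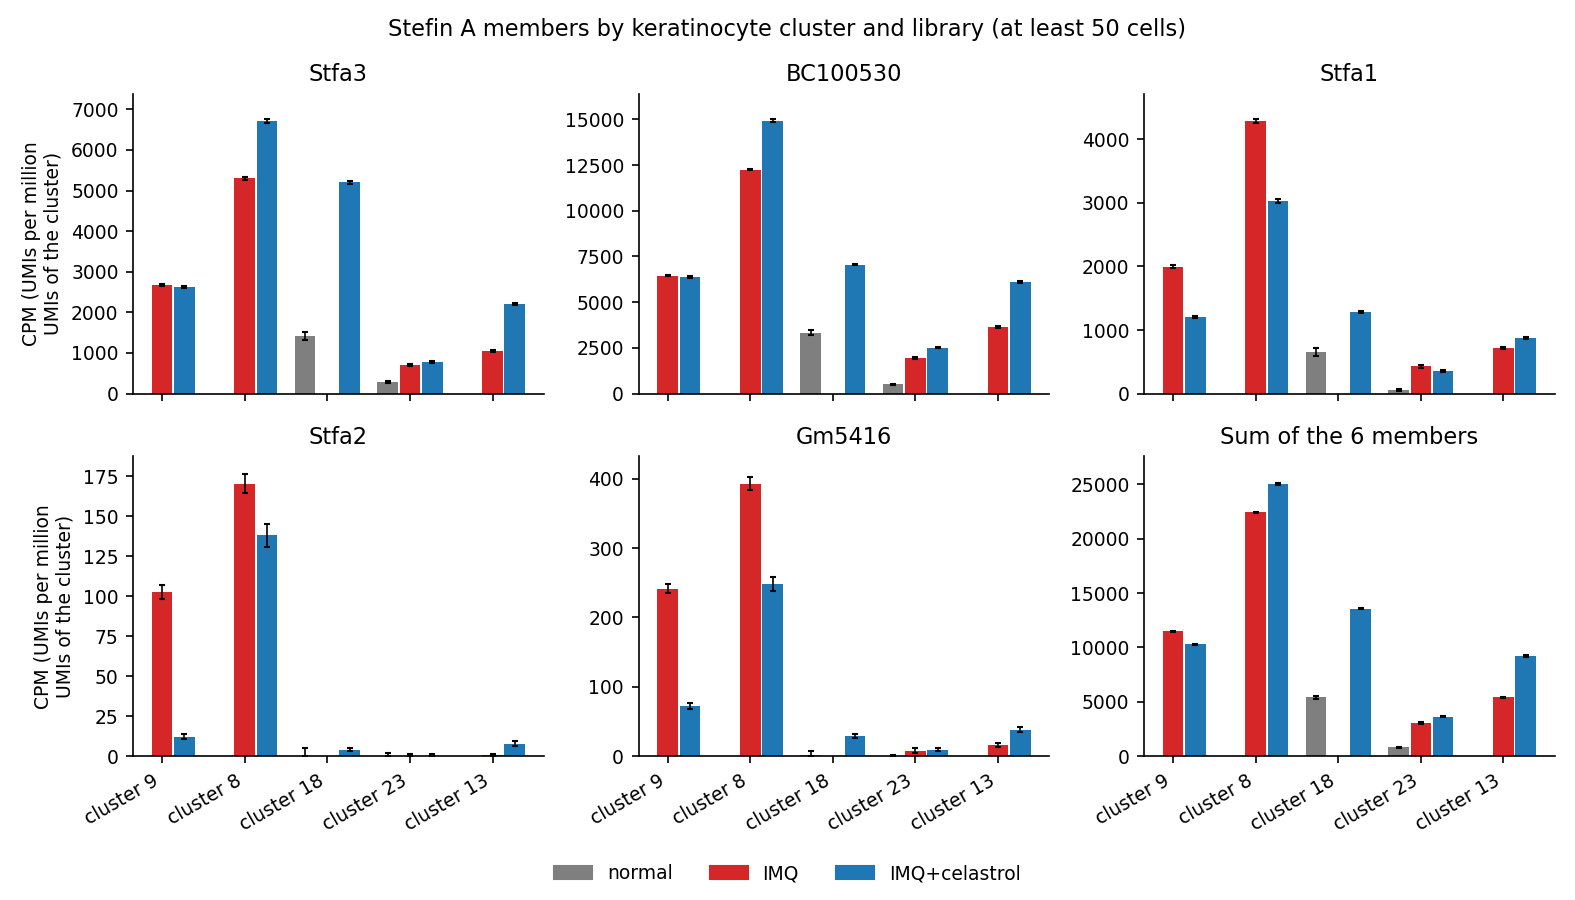
Level in CPM of 5 stefin A members and of the sum of 6 by cluster, 1 bar per library with at least 50 cells in the cluster and its exact 95% Poisson interval. Stfa3 and BC100530 are as high or higher with celastrol in clusters 8, 13 and 23, while Stfa1, Stfa2 and Gm5416 are lower in clusters 8 and 9; Stfa2l1 is not drawn.

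The mix of clusters differed between the imiquimod libraries, so ratios were also computed over clusters 8, 9 and 23 alone with their mix held equal. This alternative was added after seeing the data. It left out the other keratinocyte-like clusters, among them cluster 18 with 523 of the 1428 keratinocyte-like cells with celastrol. With clusters 8, 9 and 23 weighted by their IMQ cells, Stfa3 was at 3851 CPM in IMQ and 4550 with celastrol (1.18-fold higher) and BC100530 at 9030 and 10398 (1.15-fold higher). Stfa1 was 1.47-fold lower, so no longer past 1.5-fold, Stfa2 1.72-fold lower and Gm5416 1.92-fold lower.

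The 23 genes of an epidermal activation list, chosen with earlier results known, show what Stfa3 was set against. In keratinocyte-like cells 23 of 23 were higher in IMQ than in normal by 1.5-fold, against 22.3% of all genes tested. Their median log2 ratio was 5.33, against -0.04 over all genes tested. With celastrol 22 of 23 were lower, against 10.2% of all genes (median -1.81 against 0.02 over all genes). Among them were S100a8 (6.06-fold) and S100a9 (8.09-fold), which encode the subunits of calprotectin. The fatty acid carrier Fabp5 (1.75-fold) and the stress keratin Krt16 (1.67-fold) were lower too. In clusters 8, 9 and 23 with their mix held equal, 14 of 23 were lower and 1 higher, Sprr2a3 (1.66-fold), and the median was -1.11. The share over all genes was not computed for this equal mix. In clusters 8, 9 and 23 taken singly, 11.2%, 7.54% and 11.8% of genes were lower and 12.8%, 11.5% and 10.1% higher. Krt16 (9030 and 9113 CPM) and Fabp5 (23347 and 22305 CPM) were then within 1.5-fold, as Stfa3 and BC100530 were, and S100a9 was 4.80-fold lower.

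The make-up of the stefin A UMIs differed between the libraries mainly through Stfa3 and Stfa1. Each UMI stands for 1 captured 3′ end, so the shares were not divided by length. BC100530 gave 54.8% of the UMIs of the 6 members in normal, 55.3% in IMQ and 58.4% in IMQ+celastrol keratinocyte-like cells. Stfa3 gave 35.8%, 23.5% and 29.6%, and Stfa1 9.32%, 18.5% and 11.1%. Gm5416 and Stfa2 gave 1.87% and 0.80% in IMQ, their highest shares.

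The ratio of Stfa3 to Stfa1 UMIs was 3.85 (3.65 to 4.05) in normal, 1.28 (1.27 to 1.28) in IMQ and 2.66 (2.63 to 2.68) in IMQ+celastrol keratinocyte-like cells. It was higher with celastrol than in IMQ in each of the 4 clusters with at least 50 cells of both: 1.23 and 2.22 in cluster 8, 1.34 and 2.18 in cluster 9, 1.63 and 2.20 in cluster 23, and 1.46 and 2.53 in cluster 13. A ratio of 2 members within the same cells does not depend on the class total. With 1 library a group the difference has no replicate check.

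**Figure D3:**
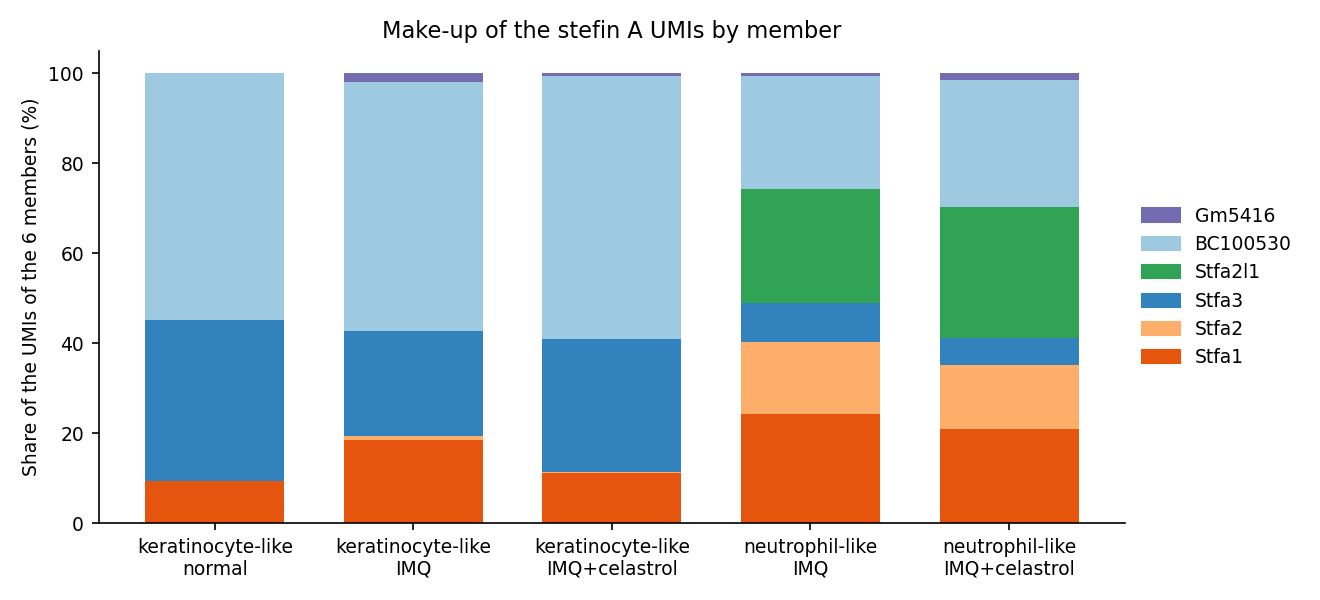
Share in percent of the UMIs of the 6 stefin A members that each member gave, in keratinocyte-like cells of 3 libraries and neutrophil-like cells of 2. BC100530 gives the largest part of each keratinocyte-like bar, while Stfa2l1 and Stfa2 appear in strength in the neutrophil-like bars.

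Neutrophil-like cells held BC100530 and Stfa1, as keratinocyte-like cells did, and in addition Stfa2l1 and a larger share of Stfa2. In the IMQ library they gave 673 Stfa2l1 UMIs (967 CPM, 895 to 1043), 670 of BC100530 (963 CPM), 645 of Stfa1 (927 CPM), 426 of Stfa2 (612 CPM, 555 to 673), 226 of Stfa3 (325 CPM) and 15 of Gm5416 (21.6 CPM). Stfa2l1 and Stfa2 made up 25.3% and 16.05% of the members' UMIs there, against 0.80% for Stfa2 in keratinocyte-like cells. Of all Stfa2l1 UMIs in kept cells, 91.9% in IMQ (89.7% to 93.8%) and 95.3% in IMQ+celastrol lay in neutrophil-like cells. For Stfa3 the share was 0.131% and 0.0137%, since keratinocyte-like cells held 94.0% and 86.9%. Another 5.13% and 12.3% of the Stfa3 UMIs lay in the unnamed cluster 13, whose highest score was that of differentiated keratinocytes. The row Gm5483, no member, was at 1545 CPM in the neutrophil-like cells of the IMQ library and thus above each member.

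With celastrol the neutrophil-like cells held 2555 CPM of the 6 members (2333 to 2793), against 3815 in IMQ (3671 to 3963), 1.49-fold lower (1.36 to 1.65). Stfa2l1 was at 743 CPM (1.30-fold lower, 1.08 to 1.57), BC100530 at 722 (1.33-fold lower) and Stfa1 at 537 (1.73-fold lower, 1.40 to 2.15). Stfa2 was at 363 CPM (1.68-fold lower, 1.30 to 2.21) and Stfa3 at 153 (2.13-fold lower, 1.44 to 3.25). Gm5416, with 7 and 15 UMIs, was at 36.9 CPM, and its ratio to IMQ had an interval from 0.590 to 4.46. At 1.5-fold, 3 of 6 members were lower and 1 (Gm5416) higher, against 24.7% and 22.1% of 4596 genes. These counts rest on 67 cells with celastrol. Stfa3 was past 1.5-fold lower under every alternative run, with log2 ratios from -1.50 to -0.87. Stfa1 was not past it as a mean over cells (-0.38) or in cells with at most 2 keratinocyte UMIs (-0.45), nor was Stfa2 in those cells (-0.27) or thinned (-0.51). Gm5416 was not past it with doublets kept (0.45), with Scrublet's own calls (0.42), as a mean over cells (0.42) or thinned (0.18). Stfa2l1, at -0.38, was past it when thinned (-1.06), in cells with at most 2 keratinocyte UMIs (-0.75) and with Scrublet's own calls (-0.66). BC100530, at -0.42, was past it with doublets kept (-0.77) and with Scrublet's own calls (-0.76). The 7 normal neutrophil-like cells gave 10 members' UMIs in all, 6 of Stfa2l1 and 4 of Stfa1.

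Within the neutrophil-like cells the UMIs were unevenly held. Stfa2l1 was found in 60% of IMQ and 53.7% of IMQ+celastrol cells, Stfa1 in 32.9% and 16.4%. The tenth of cells with most Stfa1 UMIs held 81.2% and 94.1% of them, against 42.4% and 47.5% for Stfa2l1. Of 11 neutrophil granule genes, 8 were lower by 1.5-fold with celastrol and 0 higher, against 24.7% and 22.1% of 4596 genes. Their median log2 ratio was -1.20, against -0.0062 over all genes tested. Ngp (3.21-fold) and Lcn2 (2.35-fold) were among those lower. Of 18 other neutrophil genes 1 was lower, Retnlg (1.80-fold), and 0 higher (median -0.013), against the same shares of all genes. The 67 cells with celastrol had a median depth of 2676 UMIs, against 4510.5 in IMQ.

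Keratinocyte RNA was present in the neutrophil-like cells and more so with celastrol. A list of 10 keratinocyte genes came to 394 CPM in IMQ and 1212 with celastrol, and all 10 were detected in both. Its level in fibroblast-like cells was 231, 259 and 830 CPM in normal, IMQ and IMQ+celastrol. Per 1000 UMIs of that list, keratinocyte-like cells of the IMQ library held 72.0 Stfa3, 169 BC100530 and 56.5 Stfa1 UMIs. Fibroblast-like cells held 52.5, 129 and 40.0, T cell-like cells 68.4, 145 and 41.7, and neutrophil-like cells 825, 2445 and 2354. In IMQ these 3 members thus stood, relative to keratinocyte RNA, within 1.5-fold of the keratinocyte-like values in fibroblast-like and T cell-like cells, and above them in neutrophil-like cells. The neutrophil-like cells were not alone in this. Langerhans cell-like cells of the IMQ library held 155 Stfa3, 407 BC100530 and 628 Stfa1 UMIs per 1000, and melanocyte-like cells 466, 641 and 252. No other IMQ class with values lay above the keratinocyte-like cells for all 3 members.

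With celastrol the neutrophil-like cells held 126 Stfa3 UMIs per 1000 of the keratinocyte list (82.6 to 186), against 81.9 in keratinocyte-like cells (81.5 to 82.3), 45.0 in fibroblast-like cells and 44.8 in T cell-like cells. For Stfa1 the neutrophil-like, keratinocyte-like and fibroblast-like values were 443, 30.8 and 19.1, and for BC100530 they were 596, 162 and 94.9. The part of keratinocyte RNA in the neutrophil-like differences with celastrol was not tested. In cells with at most 2 UMIs of the list (99 and 31 cells), an alternative added after seeing the data, the log2 ratio of the sum of the 6 was -0.43 against -0.58. Conversely, Stfa2 in keratinocyte-like cells stood at 2921 UMIs per 1000 of the leukocyte list in IMQ, against 12.96 in neutrophil-like cells. That list came to 13.1, 43.3 and 17.7 CPM in normal, IMQ and IMQ+celastrol keratinocyte-like cells.

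**Figure D4:**
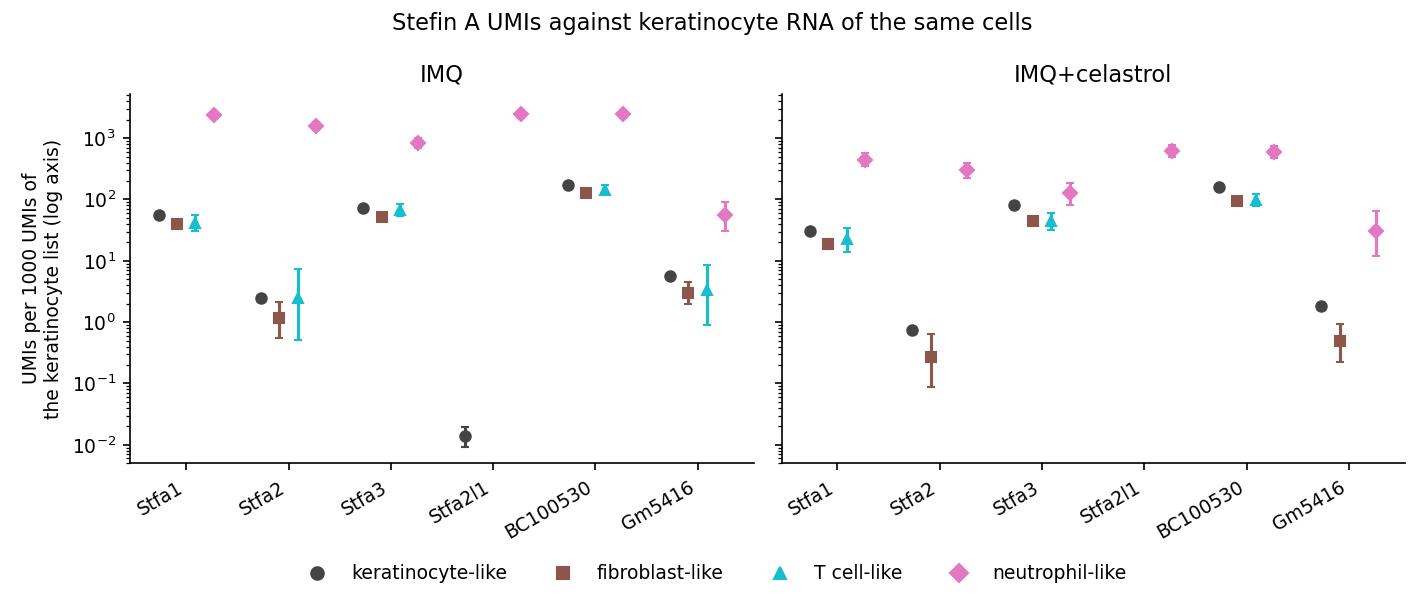
UMIs of each stefin A member per 1000 UMIs of the 10-gene keratinocyte list (log axis) in 4 classes of cells, in the IMQ (left) and IMQ+celastrol (right) libraries, with exact 95% intervals; values from fewer than 3 UMIs are not drawn. For Stfa3 with celastrol the fibroblast-like point is at 45.0 and the T cell-like one at 44.8, under the keratinocyte-like one at 81.9, and the neutrophil-like one is at 126.

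The targets of stefins are the papain-family cathepsins, listed here with legumain. In keratinocyte-like cells 6 of 11 were higher and 2 lower in IMQ than in normal (median log2 ratio 0.67), against 22.3% and 27% of all genes tested. Ctsc, a processing protease for granule enzymes, was 6.71-fold higher (38.6 and 259 CPM), Ctsl 2.53-fold (50.2 and 127 CPM), Ctsh 1.83-fold and Ctsb 1.37-fold higher, while Ctso was 4.49-fold and Ctsf 2.09-fold lower. With celastrol against IMQ, 2 were higher and 1 lower (median 0.08), against 14.8% and 10.2% of all genes, and Ctsb was at 239 CPM, Ctsc at 189, Ctsl at 104 and Ctsh at 64.2. Of 3 other cystatins measured, Cstb (stefin B) was at 897, 1264 and 796 CPM and Cst3 (cystatin C, which is secreted) at 1122, 383 and 704.

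Of 18 measured genes of the cornified envelope, to which human CSTA belongs, 6 were higher and 8 lower in IMQ than in normal keratinocyte-like cells (median log2 ratio -0.41), against 22.3% and 27% of all genes tested. With celastrol against IMQ 5 of 16 were higher and 4 lower (median -0.12), against 14.8% and 10.2%. Krt1, Krtdap and Sbsn were within 1.5-fold between the imiquimod libraries, and Krt10 was 1.76-fold higher with celastrol.

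Over 37 sums of a class in a library with at least 50 cells, the gene most like Stfa3 was Krt16 (Pearson r of log2(CPM + 1) 0.90), followed by Krt6a, Sprr1b, Krt1 and Krt14. BC100530 was most like Krt6a (0.94) and Stfa1 most like S100a9 (0.91), before Krt6a. Stfa2 was most like the interleukin-36 gene Il1f9 (0.90), before S100a9 and S100a8, and its 5 nearest held the neutrophil receptor gene Cxcr2 (0.81). Gm5416 was most like the small proline-rich gene Sprr2h (0.93). Stfa2l1 was most like the neutrophil surface gene Ly6g (0.98), before Mrgpra2b, Ngp, Fpr1 and Ltf. The points share libraries and their free RNA, so these values are a description.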

How the data were processed

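Droplet 3′ single-cell libraries of 3 skin samples were counted by the authors with Cell Ranger (cellranger 4.0.0 per the file headers) against mm10/GRCm38, per the submitters' processing notes. The deposited values are raw UMI counts per gene and cell barcode. How barcodes were filtered and how reads matching several genes were treated is not given in the sources used here.

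Cells with at least 300 genes and at most 20% mitochondrial UMIs were kept. Scrublet called too few doublets in the IMQ library to have worked (under 0.5%), so the cells with the highest scores were left out in each library at 0.8% per 1000 cells. The 3 libraries were clustered together in Scanpy 1.11.5 (2000 variable genes, 30 principal components, 15 neighbours, Leiden resolution 1, leidenalg 0.10.2), without stefin A genes. A cluster was named from marker lists where its score was at least 0.25 and 1.2 times that of the next class outside the keratinocyte lineage, with at least 3 markers in 25% of cells. These limits were set after the clusters were seen, and differences from other work may come from these rebuilt names.

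UMIs were summed by class and library with scipy 1.17.1 intervals at 95%. A gene was counted as higher or lower past 1.5-fold, among genes with at least 10 UMIs over both libraries. Where 0 UMIs were found, the limit is 3 counts. Named genes were the 6 members, up to 4 of highest summed UMIs in each list with up to 2 that went against the list's median by 1.5-fold, and the 5 most like each member of at least 200 UMIs. The members and lists were chosen with earlier results of these data known. Sequence identities were computed with Biopython 1.88. The fold calls were tested on simulated data. Alternatives covered doublets, clustering, cluster names, mitochondrial limit, scaling, thinning, weighting of cells, the CPM added and the UMI minimum.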

Additional observations from a re-analysis of the deposited data

How the results depend on the processing

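No paired analysis was possible because each group had 1 library, and no replicate could be left out for the same reason. On the log2 scale, Stfa3 in keratinocyte-like cells was 3.12 higher in IMQ than in normal. It was 2.64 with doublets kept, 3.02 with Scrublet's own calls, 2.91 with each library clustered by itself, 3.19 with the members, S100a8, S100a9 and mitochondrial genes left out of the total, 3.39 as a mean over cells, 3.35 with cells thinned, 3.43 with all clusters given the class of highest score and 2.94 in cells without a leukocyte UMI (added after seeing the data). For Stfa3 in IMQ+celastrol against IMQ the value was 0.13, and under the same alternatives in that order it was 0.42, 0.16, 0.21, 0.089, 0.065, 0.053, 0.17 and 0.17. With the same mix of clusters, also added, it was 0.24. The sum of the 6 members in neutrophil-like cells was -0.58 with celastrol against IMQ. It was -0.88 with Scrublet's own calls, -0.34 as a mean over cells and -0.82 thinned (24 cells with celastrol and 109 in IMQ). In cells with at most 2 keratinocyte UMIs (added) it was -0.43. No direction of these 3 results changed, and the cause of the shifts was not tested.

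The counts of genes past 1.5-fold moved with the UMI minimum, which sets how many genes are tested. In keratinocyte-like cells 3156 genes were higher and 3829 lower in IMQ than in normal. With a minimum of 1 UMI 5578 were higher, and with 100 UMIs 1940 were higher and 2451 lower. With celastrol against IMQ, 2163 were higher and 1499 lower, against 3966 and 3375 with 1 UMI and 1131 and 678 with 100. In neutrophil-like cells 1015 were higher and 1134 lower, against 3112 and 4116 with 1 UMI and 123 and 141 with 100. Gm5416 in neutrophil-like cells rests on 15 UMIs in IMQ and 7 with celastrol.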

Other observations

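In 34 melanocyte-like cells of the IMQ library, whose median depth was 811 UMIs, Stfa3 gave 351 UMIs (6077 CPM). The same cells gave 754 UMIs of the 10-gene keratinocyte list. Per 1000 UMIs of that list they held 466 Stfa3 UMIs (409 to 529), against 72.0 in keratinocyte-like cells of that library. The part of keratinocyte RNA in the Stfa3 level was not tested. In 12 melanocyte-like cells with celastrol Stfa3 gave 122 UMIs (4256 CPM), and in 31 normal ones 0.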
